A study of Mus musculus with 18 samples.

Results

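Calcium handling in muscle was followed through 8 genes chosen by name: Cacna1s, Ryr1, Casq1, Casq2, Atp2a1, Atp2a2, Sln and Pvalb. They are 8 of the 53465 genes in the deposited count tables, and each gene identifier was matched to its mouse symbol. Their transcripts were measured by RNA sequencing in skeletal muscle (SKM), brown adipose tissue (BAT) and white adipose tissue (WAT) of wild-type C57BL/6J mice. One group of each tissue came from mice given quercetin, a plant flavonol, by oral gavage at 0.125 mg/kg in 100 µL of 10% PEG400 in PBS. The other group came from mice given that vehicle alone, so that every animal received PEG400. Each of the 6 groups held 3 libraries, numbered 1 to 3. The labels give male mice treated weekly from 14 months of age for a lifespan arm; for the sequenced animals, age, sex and treatment time are not stated, nor are the muscle or the fat depot.

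In a muscle fibre an action potential moves the voltage sensor of the transverse tubule, which opens the ryanodine receptor of the sarcoplasmic reticulum, and stored calcium floods the cytosol. SERCA pumps return the calcium to the store, where calsequestrin binds it, and parvalbumin buffers it in the cytosol of fast fibres. Cacna1s encodes the pore of the voltage sensor and Ryr1 the release channel. Casq1 and Casq2 encode the fast and the cardiac or slow calsequestrin, Atp2a1 the fast fibre pump SERCA1 and Atp2a2 the pump SERCA2, whose forms serve slow fibres, heart and non-muscle cells. Sln encodes sarcolipin, a small membrane protein that binds SERCA and lowers the calcium moved per ATP, and Pvalb encodes parvalbumin.

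Several libraries stood apart from their group. Summed counts over genes ran from 8436308 to 12311345 per library. Levels are given in CPM, reads scaled to the size of the library. Among tissue markers, Acta1 stood at 14340 to 36190 CPM in muscle, Ucp1 at 893 to 4740 CPM in brown fat and Adipoq at 17.8 to 1097 CPM in white fat. Adipoq also stood at 530 to 1031 CPM in brown fat, so that it did not set white fat apart. A list of 15 fast fibre markers summed to 86200 to 164000 CPM in muscle, but also to 64.2 to 40300 CPM in brown fat and 52.3 to 1430 CPM in white fat. The highest fat libraries were brown fat quercetin 3, with Ucp1 at 893 CPM against at least 3731 CPM in the other brown fat libraries, and white fat vehicle 2, with Adipoq at 17.8 CPM. Muscle vehicle 3 and quercetin 2 held the most Adipoq of the muscle libraries, at 471 and 181 CPM, and quercetin 2 also held Ucp1 at 271 CPM, against at most 0.698 CPM in the other muscle libraries. Muscle vehicle 1 was lowest by 2-fold or more below the next muscle library in 13.2% of 10456 genes with a muscle median above 5 CPM, against at most 0.182% for any other muscle library. In whole tissue, fewer cells of a type and less RNA per cell cannot be told apart.

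The coupling and release genes were muscle transcripts, and the pump genes divided between tissues. Of the 8 genes, 7 were higher in muscle than in white fat, 6 were higher in muscle than in brown fat, and Atp2a2 was lower in muscle than in brown fat. All 8 were higher in brown than in white fat, and 1 of them was called with vehicle libraries alone. Without the 5 libraries named below for markers of another tissue, the calls of Ryr1 and Atp2a2 between brown and white fat were lost. Ryr1 then stood at 2.52 (edgeR adjusted p = 0.0689) and Atp2a2 at 0.85 (adjusted p = 0.13). All 14 fast fibre markers tested were also called higher in brown than in white fat, with a median of 6.38. So were all 7 markers of slow fibres, with a median of 7.38, and the part of these fibres in the values was not tested. The median log2 difference over the 8 genes was 9.62 for muscle minus white fat, 4.63 for muscle minus brown fat and 5.47 for brown minus white fat, against -0.24, -0.03 and -0.13 over all 16388 genes tested. Of all those genes, 21.7% were called higher and 28.6% lower in muscle than in white fat, 13.3% higher and 13.9% lower in muscle than in brown fat, and 18.3% higher and 22% lower in brown than in white fat. Calls are from edgeR's quasi-likelihood test in a fit of all 18 libraries with both arms together, at a Benjamini-Hochberg adjusted p under 0.05.

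**Figure D1:**
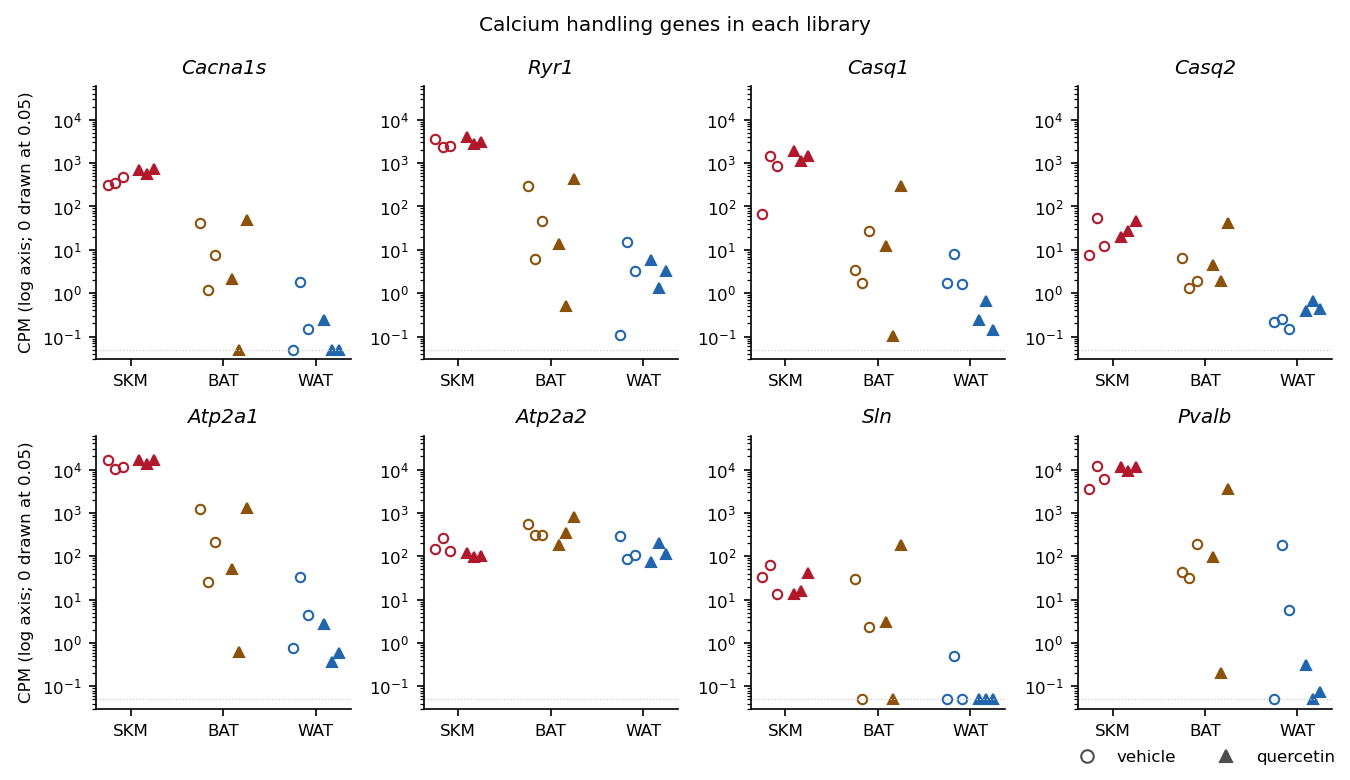
CPM of the 8 calcium handling genes on a log axis in muscle (SKM), brown fat (BAT) and white fat (WAT); each point is 1 library, open circles are vehicle and filled triangles quercetin, in the order of replicate 1 to 3, and libraries at 0 are drawn at 0.05. Atp2a2 lies between 73.2 and 813 CPM in every library, while within brown fat Casq2 runs from 1.30 to 41.9 CPM and Pvalb from 0.20 to 3509 CPM.

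Promoter sequence is shown for the 3 genes whose window holds the letters CAGCTG, a form of the E-box that myogenic factors are known to bind. RefSeq promoters for build GRCm38.p6 matched 6 of the 8 genes, with 7 windows since Pvalb has 2 start sites. The 250 bases before each start site were searched on both strands. CAGCTG was found in the windows of Atp2a1, Casq1 and Cacna1s, that is 3 of 6 genes, while 13.0% of all 32851 windows of that length hold it. The bases below run 5′ to 3′ on the gene's strand in lower case, with CAGCTG in capitals, and stop before the outermost annotated transcript start; in Cacna1s the capitals GGAATG also mark CATTCC on the other strand, the MCAT letters, found in 12.6% of windows. The Atp2a1 stretch is chr7:126463109-126463323 on the minus strand, with the match 55 bases before the RefSeq start site. The Casq1 stretch is chr1:172219896-172220145 on the minus strand, with the match 195 bases before it, and the Cacna1s stretch is chr1:136052561-136052749 on the plus strand, with the match 123 bases before it.
Atp2a1: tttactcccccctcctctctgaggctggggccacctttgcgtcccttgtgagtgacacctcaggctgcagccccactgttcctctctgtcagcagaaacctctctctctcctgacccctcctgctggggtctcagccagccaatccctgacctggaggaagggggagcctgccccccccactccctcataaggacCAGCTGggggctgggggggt
Casq1: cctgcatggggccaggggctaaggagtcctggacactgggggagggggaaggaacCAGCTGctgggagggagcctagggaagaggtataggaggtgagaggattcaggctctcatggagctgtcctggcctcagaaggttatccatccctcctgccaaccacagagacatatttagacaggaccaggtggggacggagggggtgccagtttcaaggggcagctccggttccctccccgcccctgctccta
Cacna1s: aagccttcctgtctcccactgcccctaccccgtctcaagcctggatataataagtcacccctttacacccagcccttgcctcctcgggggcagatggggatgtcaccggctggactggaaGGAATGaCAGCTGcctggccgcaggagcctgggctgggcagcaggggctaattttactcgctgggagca

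The windows of Casq2, Pvalb and Ryr1 held no CAGCTG, and none of the 7 windows held TATAAA (12.4% of all windows), a MEF2 match (0.508%) or a CArG match (1.47%). The looser E-box CANNTG, of which CAGCTG is a form, is in 66.2% of all windows. A match describes the letters only, and binding was not measured.

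Cacna1s, the voltage sensor pore whose promoter stretch is printed above, is annotated at chr1:136052750-136119822 on the plus strand of GRCm38. It measured 321, 351 and 467 CPM in the vehicle muscle libraries and 689, 571 and 716 CPM with quercetin. In brown fat it measured 40.9, 1.16 and 7.55 CPM with vehicle and 2.12, 0 and 47.8 CPM with quercetin. Every muscle library therefore lay above every brown fat library. In white fat it had 22 reads in vehicle 2, 2 in vehicle 3, 3 in quercetin 1 and none in the other 3 libraries, where a count of 0 allows up to 0.217 to 0.326 CPM (3 counts per library; this covers counting error only). Muscle exceeded brown fat by 4.91 ± 1.18 on the log2 scale (SE, edgeR adjusted p = 0.00624) and white fat by 10.99 ± 1.59 (adjusted p = 8.55e-05).

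Ryr1, the release channel, lies at chr7:29003344-29125179 on the minus strand and is the longest of the transcripts, with 21838 exon bases. Its muscle libraries held 2314 to 4076 CPM with a median of 2900 CPM. In brown fat it ran from 0.51 CPM in quercetin 2 to 436 CPM in quercetin 3, with 303 CPM in vehicle 1. In white fat it reached 14.9 CPM in vehicle 2 and 5.87 CPM in quercetin 1, and stood at 0.11 CPM, a single read, in vehicle 1. Those libraries, named for their Ryr1 level, also differed in B cell and lymph node markers, which summed to 2349, 2788 and 1.74 CPM in the same order. Vehicle 2 also held the most fast fibre markers of white fat, at 1430 CPM. The part of either marker list in the Ryr1 level was not tested. Muscle minus brown fat was 4.51 ± 1.28 (edgeR adjusted p = 0.0165; 0.0504 without brown fat vehicle 3) and muscle minus white fat 9.36 ± 1.59 (adjusted p = 0.000283).

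Casq1, the main calsequestrin of fast fibres, lies at chr1:172209894-172219868 on the minus strand. Among muscle libraries it measured 1474 and 871 CPM in vehicle 2 and 3 and 1912, 1130 and 1472 CPM with quercetin, but 65.5 CPM in vehicle 1. That 1 library lay more than 10-fold below the rest, from 563 reads against 9389 or more. Casq2, at chr3:102086415-102146514 on the plus strand, was also lowest in muscle vehicle 1, at 7.56 CPM against 12.3 to 54.2 CPM in the other 5. Both calsequestrins were higher in muscle than in white fat, Casq1 by 9.89 ± 1.56 (edgeR adjusted p = 0.000168) and Casq2 by 6.38 ± 0.85 (adjusted p = 5.11e-05). The margin over brown fat was 5.04 ± 1.25 for Casq1 (adjusted p = 0.00775) and 1.94 ± 0.67 for Casq2 (adjusted p = 0.0437). The Casq2 call against brown fat was lost without muscle vehicle 2 (1.30, adjusted p = 0.161) and without 7 other single libraries, at adjusted p of 0.0549 to 0.104. Per transcript length, Casq1 made up 92.4 to 99.3% of the 2 calsequestrin genes in muscle, in TPM, which divides by exon length and scales to the library.

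Pvalb, the cytosolic buffer of fast fibres, lies at chr15:78191114-78206400 on the minus strand. In muscle it measured 3604, 11780 and 5925 CPM with vehicle and 11750, 9049 and 11310 CPM with quercetin. In brown fat it measured 43.3, 30.7 and 189 CPM with vehicle and 96.5, 0.20 and 3509 CPM with quercetin. In white fat vehicle 2 held 183 CPM from 2199 reads and vehicle 3 held 5.87 CPM, while the other 4 libraries together held 5 reads. Muscle minus brown fat was 4.75 ± 1.58 (edgeR adjusted p = 0.0358), a call that 8 of the 12 single-library omissions ended, with adjusted p between 0.0509 and 0.0918 and estimates of 4.48 to 5.37. Muscle minus white fat was 11.53 ± 2.13 (adjusted p = 0.00051).

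The SERCA genes differed between tissues by isoform. Atp2a1, at chr7:126445858-126463108 on the minus strand, measured 16520, 10200 and 11460 CPM in vehicle muscle and 17020, 13340 and 17040 CPM with quercetin. In brown fat it measured 1213, 25.3 and 212 CPM with vehicle and 50.9, 0.61 and 1287 CPM with quercetin, and in white fat 33.6 CPM in vehicle 2 and 0.36 to 4.54 CPM elsewhere. Muscle therefore lay above both fat depots in every library. Muscle minus brown fat was 4.94 ± 1.37 (edgeR adjusted p = 0.0147) and muscle minus white fat 11.80 ± 1.83 (adjusted p = 0.000146).

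Atp2a2, at chr5:122453513-122502225 on the minus strand, was the 1 gene of the 8 called lower in muscle than in brown fat. It measured 147, 268 and 134 CPM in vehicle muscle and 116, 97.2 and 98.9 CPM with quercetin. In brown fat it measured 562, 308 and 309 CPM with vehicle and 184, 351 and 813 CPM with quercetin. Brown fat quercetin 2, in which Atp2a1 stood at 0.61 CPM and the fast fibre markers at 64.2 CPM, thus held 351 CPM of Atp2a2. In white fat 292 CPM in vehicle 1 and 207 CPM in quercetin 2 stood above 73.2 to 113 CPM in the other 4. These 2 libraries are also the white fat libraries that the labels place on flow cell H7GKJDSXX, and they had the highest adipocyte marker sums of white fat, 50580 and 26000 CPM. Their part in the Atp2a2 level was not tested. Muscle was lower than brown fat by 1.60 ± 0.41 on the log2 scale (edgeR adjusted p = 0.00931), and brown fat was higher than white fat by 1.52 ± 0.41 (adjusted p = 0.00862). The 2 calls were lost without 5 libraries named for markers of another tissue, at -0.92 (edgeR adjusted p = 0.147) and 0.85 (adjusted p = 0.13). These 5 were muscle vehicle 3 and quercetin 2, white fat vehicle 2, and brown fat vehicle 1 and quercetin 3. White fat quercetin 1, which held the most B cell and lymph node markers of white fat, stayed in. Muscle minus white fat was -0.08 ± 0.40 (adjusted p = 0.886), with a 95% interval of -0.93 to 0.77.

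Set per transcript length and with Atp2a3, the SERCA3 gene known from blood and epithelial cells, the leading member of the 3 pump genes differed between tissues, and within brown fat between libraries. Atp2a1 made up 98.4 to 99.5% of their summed TPM in muscle. In brown fat each of Atp2a1 and Atp2a2 led in 3 of 6 libraries: Atp2a2 made up 82% and 92.2% in vehicle 2 and quercetin 2, the brown fat libraries with the fewest fast fibre markers, and Atp2a1 made up 75.1% and 73.1% in vehicle 1 and quercetin 3, those with the most. In white fat Atp2a3 led in 5 of 6 libraries, with 66% to 85.1%, and Atp2a2 led in quercetin 2, with 78.6%. Atp2a3 was lower in muscle than in white fat by 2.97 ± 0.52 on the log2 scale (edgeR adjusted p = 0.000367). Summed SERCA level was 5510 to 12500 TPM in muscle, 89.4 to 1170 TPM in brown fat and 164 to 505 TPM in white fat.

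**Figure D2:**
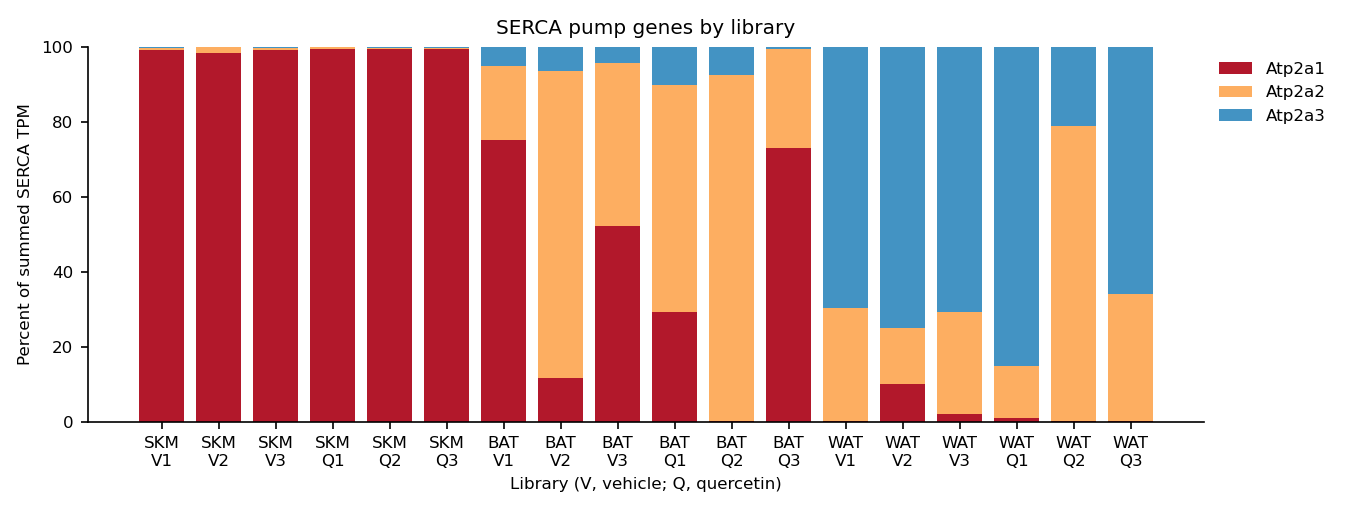
Stacked bars give Atp2a1, Atp2a2 and Atp2a3 as percent of their summed TPM in each of the 18 libraries (V, vehicle; Q, quercetin). Atp2a1 fills 98.4 to 99.5% of each muscle bar, brown fat bars run from 0.279 to 75.1% Atp2a1, and Atp2a3 leads in 5 of the 6 white fat bars.

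Sln, at chr9:53850164-53854560 on the plus strand, was a low muscle transcript that 1 brown fat library exceeded. In muscle it measured 32.6, 63.3 and 13.4 CPM with vehicle and 13.4, 15.8 and 42.0 CPM with quercetin. In brown fat it measured 29.2, 0 and 2.33 CPM with vehicle and 3.11, 0 and 186 CPM with quercetin, so that quercetin 3 lay above every muscle library. Slow fibre markers summed to 4702 CPM in that library and to 508 CPM in brown fat vehicle 1, against 23.4 to 1044 CPM in muscle. As a share of the fast fibre marker sum they made up 11.7% and 7.81% in those brown fat libraries and at most 0.655% in muscle, and their part in the Sln level was not tested. Muscle minus brown fat was 0.19 ± 1.24 for Sln (edgeR adjusted p = 0.944, 95% interval -2.47 to 2.85), and 4.77 (adjusted p = 0.0275) without the 5 libraries named above. In white fat Sln had 6 reads in vehicle 2 and 0 in the other 5 libraries, so that the fitted muscle margin of 9.27 (adjusted p = 0.00238) rests on near-zero counts.

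**Figure D3:**
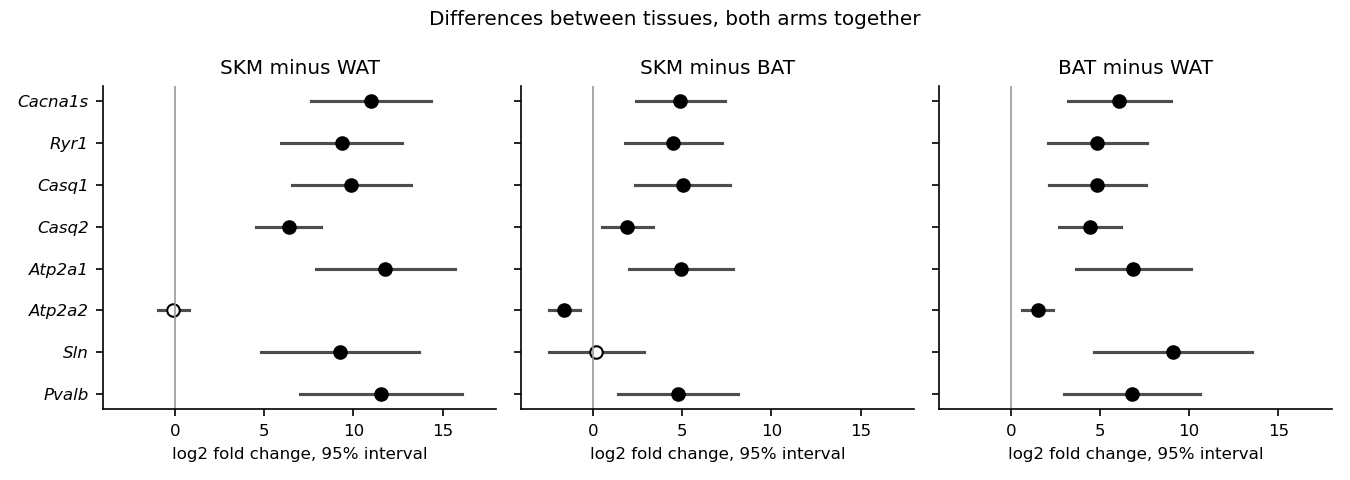
Log2 fold change of each gene for muscle minus white fat, muscle minus brown fat and brown minus white fat, with 95% unadjusted intervals as lines, from the fit of all 18 libraries; filled points have an adjusted p under 0.05. Atp2a2, Sln and Casq2 lie below the other genes in the muscle minus brown fat panel, at -1.60, 0.19 and 1.94.

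Fits of a single arm gave fewer calls against brown fat. In single arms the muscle minus brown fat estimates of Atp2a1, Ryr1 and Cacna1s stayed near those of both arms, but those of the other genes did not. The vehicle fit holds brown fat vehicle 1 and the quercetin fit holds quercetin 3, the brown fat libraries with the most fast fibre markers. These libraries measured 1213 and 1287 CPM for Atp2a1, against at most 212 CPM in the other brown fat libraries. Ryr1 stood there at 303 and 436 CPM against at most 46.1 CPM. Cacna1s stood at 40.9 and 47.8 CPM against at most 7.55 CPM. The margins of these genes over brown fat are those with both libraries included. With vehicle libraries alone, 1 of the 8 genes was called between muscle and brown fat and 1 between brown and white fat. With quercetin libraries alone 1 was called between muscle and brown fat and 7 between brown and white fat. The muscle minus brown fat estimates in vehicle and in quercetin libraries alone were 4.72 and 5.16 for Atp2a1, 4.55 and 4.47 for Ryr1 and 4.51 and 5.32 for Cacna1s, against 4.94, 4.51 and 4.91 with both arms. They differed more for Casq1 (6.19 and 3.89), Pvalb (6.34 and 3.17), Casq2 (2.93 and 0.94) and Atp2a2 (-1.11 and -2.10). Sln was -1.40 with quercetin libraries alone. Brown minus white fat estimates in vehicle and in quercetin libraries alone were 0.48 and 13.08 for Pvalb and 1.54 and 8.15 for Casq1. Without brown fat vehicle 3, 4 of the 7 calls between muscle and brown fat were left; the estimates of the 3 lost were 4.32 for Ryr1, 5.37 for Pvalb and 1.80 for Casq2. Muscle minus white fat gave 7 calls in each of the alternatives run.

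Compared per transcript length in muscle, the genes spanned a wide scale of abundance. Pvalb had a median of 19700 TPM and Atp2a1 of 9050 TPM, and their ranges of 6920 to 28600 and 5420 to 12400 TPM overlapped. Casq1 followed at 1340 TPM, below Atp2a1 in every muscle library. Ryr1 at 294 TPM and Cacna1s at 194 TPM came next, with ranges of 196 to 473 and 98 to 266 TPM that overlapped each other. Below them lay Atp2a2 at 48.4 TPM and Sln at 38.6 TPM, with overlapping ranges, and Casq2 at 20.3 TPM. In brown fat the highest medians were those of Pvalb at 135 TPM and Atp2a2 at 116 TPM, with overlapping ranges: Pvalb led in 3 of 6 libraries, Atp2a2 in vehicle 2 and quercetin 2, and Atp2a1 in vehicle 1. The highest median in white fat was that of Atp2a2 at 69.0 TPM, with every other gene at a median of at most 2.06 TPM.

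Within the fat depots several of the 8 genes moved with the fast fibre markers. Brown fat libraries in order of the summed markers were quercetin 2 (64.2 CPM), vehicle 2 (350), quercetin 1 (1190), vehicle 3 (2339), vehicle 1 (6507) and quercetin 3 (40340). Cacna1s followed the same order, at 0, 1.16, 2.12, 7.55, 40.9 and 47.8 CPM. Ryr1 did too, at 0.51, 6.21, 14.0, 46.1, 303 and 436 CPM, and so did Atp2a1. The other 5 genes were highest in quercetin 3 but broke the order below it: Casq1 and Pvalb were low in vehicle 1, and Casq2 stood at 1.92 CPM in quercetin 2, above the 1.30 CPM of vehicle 2. In white fat vehicle 2, the library with the most fast fibre markers, had the highest value of the 6 for each gene except Atp2a2 and Casq2.

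**Figure D4:**
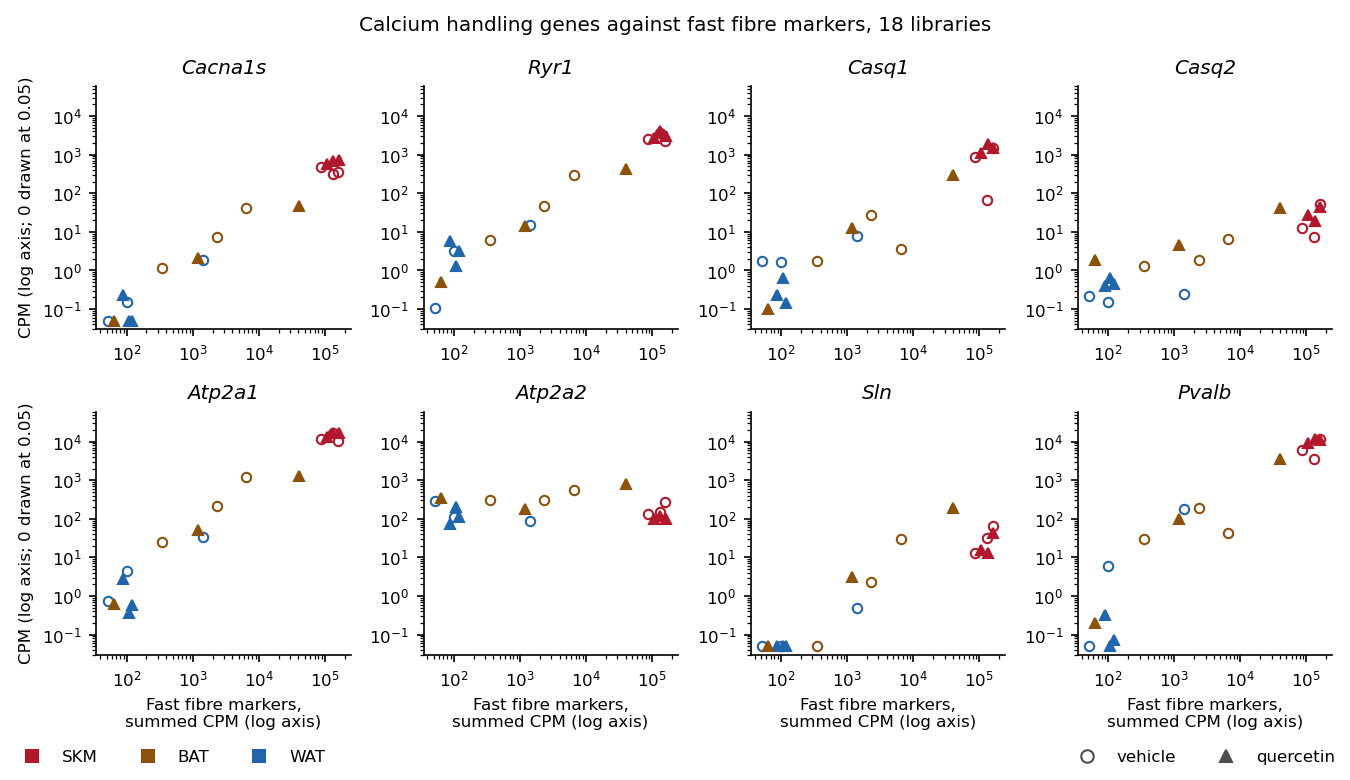
CPM of each gene against the summed CPM of 15 fast fibre markers in the 18 libraries, both on log axes (0 drawn at 0.05 on the vertical axis); colours give the tissue, open circles vehicle and filled triangles quercetin. Atp2a1, Ryr1 and Cacna1s climb with the markers from brown fat to muscle, Atp2a2 stays between 73.2 and 813 CPM, and Casq1 and Pvalb in muscle vehicle 1 and brown fat vehicle 1 lie below libraries with similar or fewer markers.

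Casq1 and Pvalb were low for the fast fibre markers in the vehicle 1 libraries of muscle and of brown fat, a description of genes chosen after their values were seen, with no test. Casq1 made up 0.0497% of the fast fibre marker sum in muscle vehicle 1, against 0.898 to 1.43% in the other 5 muscle libraries. In brown fat vehicle 1 it made up 0.0538%, against 0.157 to 1.19% in the other 5. Pvalb made up 2.73% in muscle vehicle 1, against 6.87 to 8.76% in the other muscle libraries. In brown fat vehicle 1 Pvalb made up 0.666%, against 8.09 to 8.78% in the 4 brown fat libraries other than quercetin 2, which had 2 reads. Casq2 made up 0.00573% in muscle vehicle 1, the lowest muscle share, and 0.0984% in brown fat vehicle 1, where the other brown fat libraries ran from 0.0807 to 2.99%. Atp2a1 was not low there: it made up 12.5% in muscle vehicle 1 and 18.6% in brown fat vehicle 1, the highest share of any brown fat library. White fat vehicle 1 held 16 Casq1 reads and no Pvalb read, and its fast fibre markers summed to 52.3 CPM. Whether equal numbers mark the same animal is not stated in the labels.

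Muscle vehicle 1 was also low in some other calcium genes. Of the 8 genes, 1 was lowest there by 2-fold or more, that is 12.5%, near the 13.2% of all genes. Of 55 other calcium handling genes with a muscle median above 5 CPM, 12 were, that is 21.8%. None of the 55 was lowest by that margin in another muscle library. The 3 largest gaps, chosen after the values were seen, were in Sypl2, a triad membrane protein gene, at 16.6 CPM against 252 to 526 CPM, in Slc8a3, a sodium-calcium exchanger gene, at 4.30 CPM against 39.9 to 69.1 CPM, and in Jph2, a junctophilin gene that tethers tubule to reticulum, at 154 CPM against 918 to 1830 CPM.

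Quercetin changed none of the 8 genes past the threshold in any tissue. In muscle 0 of 13562 genes were called by edgeR (406 at an unadjusted p under 0.05, 4 called by DESeq2), in white fat 0 of 14919 (122, and 6 by DESeq2) and in brown fat 0 of 13274 (241, and 3 by DESeq2), so that 0% of all genes were called. DESeq2 called none of the 8 genes either. The smallest p that an exact permutation test of 3 against 3 libraries can give is 0.1.

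In muscle 6 of the 8 estimates were above 0, with a median of 0.29 on the log2 scale against -0.03 over all genes, and without vehicle 1 in 5 of 8, with a median of 0.30. In the same comparison 12 of 15 fast fibre markers had estimates above 0, with a median of 0.33, and all 8 adipocyte markers had estimates below 0, with a median of -1.06; none was called, and their part in these values was not tested. Cacna1s averaged 380 ± 76.9 CPM with vehicle and 658 ± 77.1 CPM with quercetin (SD, n = 3 each). All 3 quercetin libraries lay above all 3 vehicle libraries, a difference of 0.77 ± 0.31 (edgeR, SE, unadjusted p = 0.0385, adjusted p = 0.91). Atp2a2 averaged 183 ± 73.6 CPM with vehicle and 104 ± 10.6 CPM with quercetin, and all 3 quercetin libraries lay below all 3 vehicle libraries, at -0.83 ± 0.34 (unadjusted p = 0.0392, adjusted p = 0.91). Such groups that do not overlap occurred in 9.21% of all muscle genes, in 4.44% in white fat and in 6.2% in brown fat. In muscle 2 of the 8 genes showed it.

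The other muscle estimates were within their intervals of 0. Casq1 differed by 0.89 ± 0.86, which became 0.35 without vehicle 1, and Pvalb by 0.57 ± 0.49, which became 0.26. Atp2a1 differed by 0.28 ± 0.40, Ryr1 by 0.21 ± 0.37 and Casq2 by 0.31 ± 0.69. Sln differed by -0.64 ± 0.62, and by 0.01 without vehicle 2. Without vehicle 2 the Atp2a2 estimate was -0.46 (unadjusted p = 0.161). Vehicle 2 was the highest muscle library in Atp2a2, Sln, Casq2 and Pvalb and also in slow fibre markers, with 1044 CPM against 23.4 to 330 CPM, and Myh7, the slow myosin gene, at 35.6 CPM against 0.35 to 10.0 CPM. All 7 slow fibre markers had estimates below 0 with quercetin in muscle, with a median of -2.05, and none was called; their part in the Atp2a2 and Sln values was not tested.

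**Figure D5:**
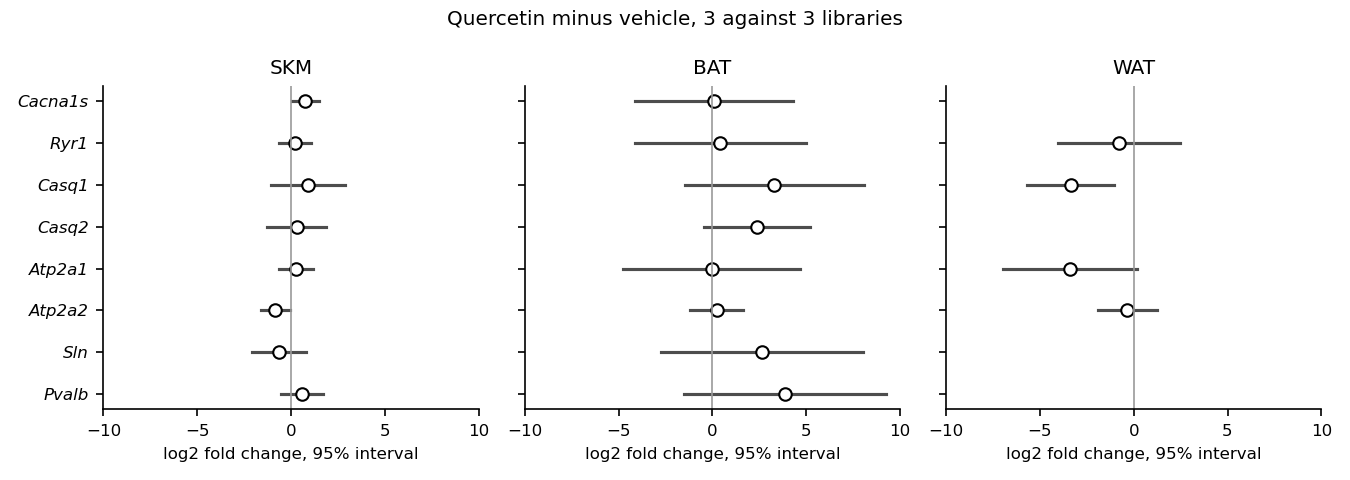
Log2 fold change of quercetin minus vehicle in muscle, brown fat and white fat with 95% unadjusted intervals, from a fit of each tissue; open points have an adjusted p above 0.05, and genes filtered out for low counts in white fat have none. The intervals of Cacna1s and Atp2a2 in muscle and of Casq1 in white fat leave out 0, and no adjusted p is under 0.91.

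In white fat 4 of the 8 genes had too few reads to be tested: Sln, Casq2, Pvalb and Cacna1s. All 4 tested estimates were below 0. Casq1 measured 1.74, 7.91 and 1.64 CPM with vehicle and 0.24, 0.66 and 0.14 CPM with quercetin. The groups did not overlap, on 2 to 95 reads per library, and differed by -3.37 ± 0.96 (edgeR unadjusted p = 0.012, adjusted p = 1). Without vehicle 2, the library with the most fast fibre markers, the edgeR estimate was -2.29 (unadjusted p = 0.0434). Atp2a1 differed by -3.39 ± 1.47 and by -1.19 without vehicle 2. Ryr1 differed by -0.78 ± 1.34 and by 0.997 without vehicle 2, and Atp2a2 by -0.34 ± 0.65 and by 0.43 without vehicle 1. The 8 fast fibre markers tested in white fat all had estimates below 0, with a median of -3.32, and their part in these values was not tested.

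In brown fat 7 of the 8 estimates were above 0, with a median of 1.40 against 0.05 over all genes, and each of those 7 turned below 0 without quercetin 3. Pvalb differed by 3.87 ± 2.29 and by -0.91 without that library, Casq1 by 3.31 ± 2.03 and by -0.87, and Sln by 2.64 ± 2.29 and by -2.88. Casq2 differed by 2.38 ± 1.21 and by -0.06, Ryr1 by 0.41 ± 1.95 and by -4.11, Atp2a2 by 0.23 ± 0.60 and by -0.58, and Cacna1s by 0.08 ± 1.80 and by -4.11. Atp2a1, the remaining gene, differed by -0.04 ± 2.02 and by 2.01 without vehicle 1, the brown fat library with the second most fast fibre markers. All 14 fast fibre markers tested had estimates above 0 in brown fat, with a median of 2.33, and so had all 7 slow fibre markers, with a median of 3.53; none was called, and their part in these values was not tested.

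The quercetin effect was not called as different between tissues for any of the 8 genes by edgeR, nor for any of 16388 genes (0%; 231, 223 and 173 at an unadjusted p under 0.05 for muscle against white fat, muscle against brown fat and brown against white fat). Of the 8 genes, Pvalb reached an unadjusted p of 0.0121 for muscle against white fat, and Pvalb (0.00266) and Casq1 (0.015) for brown against white fat, all with an adjusted p of 1. DESeq2 called 1 of the 8 genes in each of these comparisons, Sln for muscle against white fat (adjusted p = 0.0149) and Pvalb for brown against white fat (adjusted p = 0.00706). The Sln call rests on 6 reads in white fat, and Pvalb had 5 reads in the white fat quercetin libraries together. DESeq2 called 7, 2 and 11 of all genes in the same order.

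The wider calcium machinery was read from 64 further genes in 7 lists, of which 61 were tested between tissues. Against white fat 35 were higher and 9 lower in muscle, and against brown fat 34 were higher and 8 lower; between brown and white fat 29 were higher and 13 lower in brown. Their median log2 difference was 1.0, 1.05 and 0.66 in that order. Of all 16388 genes tested, 21.7% were higher and 28.6% lower in muscle than in white fat. Against brown fat 13.3% were higher and 13.9% lower in muscle, and 18.3% were higher and 22% lower in brown than in white fat. The counts of lower genes in muscle against brown fat and in brown against white fat were close to these shares. The same shares stand beside the counts of each list below.

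Of the 17 genes of the triad and release list, 10 were higher and 3 lower in muscle than in white fat, among them Trdn, which anchors calsequestrin to the release channel (12.32 ± 1.89), Hrc, a calcium-binding protein of the reticulum (11.05 ± 1.76), and Jsrp1, a junctional protein (10.16 ± 1.61). Against brown fat 10 were higher and 2 lower in muscle, with Jph2 at 4.95 ± 0.88 (edgeR adjusted p = 0.000926). Ryr2, the cardiac release channel, was lower in muscle than in brown fat by 3.08 ± 0.59 (adjusted p = 0.0016), on 0.626 to 13.6 CPM in brown fat and 0.417 to 1.08 CPM in muscle. Between brown and white fat 11 were higher and 3 lower in brown, led by Trdn (7.69 ± 1.71), Hrc (6.55 ± 1.53) and Jsrp1 (6.39 ± 1.42), while Ryr3 was lower in brown fat at -1.79 ± 0.58.

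Of the 5 further channel subunits, 4 were higher in muscle than in white fat, with Cacng6 at 9.46 ± 1.39, and all 5 were higher than in brown fat, with Cacng1 at 4.79 ± 0.87. Between the fat depots 3 were higher and 1 lower in brown, with Cacng6 at 5.18 ± 1.26. Of the other SERCA genes and regulators 2 of 4 were tested: Mrln, which encodes the SERCA inhibitor myoregulin, was higher in muscle than in either fat, and Atp2a3 was lower in muscle than in white fat and lower in brown than in white fat (-3.06 ± 0.53). Pln, the phospholamban gene, and Strit1, which encodes the SERCA activator DWORF, were too low to be tested, with at most 2.64 and 2.4 CPM in any library.

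The transport and store-operated list gave 6 higher and 1 lower of 11 in muscle against white fat, 7 and 1 against brown fat, and 3 higher and 4 lower in brown against white fat. Atp2b3, a plasma membrane calcium pump gene, exceeded brown fat by 4.76 ± 0.83. Orai2, a store-operated channel gene, was lower than in white fat by 2.97 ± 0.72 in muscle and by 4.0 ± 0.76 in brown fat. Orai2 stood at 1.09 to 69.7 CPM in white fat. All 7 B cell and lymph node markers were called lower than in white fat in muscle and in brown fat, with medians of -9.60 and -9.08. White fat vehicle 1 held the fewest of these markers, at 1.74 CPM, and Atp2a3 made up 69.6% of its 505 SERCA TPM. In white fat quercetin 1, which held the most, Atp2a3 made up 85.1% of 311 TPM. The part of these markers in the values of Orai2, Atp2a3 and Itpr3 was not tested.

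Of the 9 genes of the mitochondrial list none was called higher in muscle than in brown fat and 3 were called lower, against 13.9% of all genes lower; 4 of the 9 estimates were above 0. Among the 3 were Letm1, a mitochondrial ion exchanger gene (-1.93 ± 0.29), and Mcur1, a uniporter regulator gene (-1.78 ± 0.31). Against white fat 6 were higher and 2 lower in muscle, with Mcub, the dominant-negative uniporter subunit, at -1.90 ± 0.48, and 6 were higher and 2 lower in brown than in white fat. Of the 14 buffers and effectors 8 were higher in muscle than in white fat and none lower, and 11 were higher and 1 lower than in brown fat, led by Camk2a, a calmodulin kinase gene (5.58 ± 1.06). Between brown and white fat 3 were higher and 1 lower. Among the IP3 receptors, release channels of the endoplasmic reticulum, Itpr3 was lower than in white fat by 2.51 ± 0.42 in muscle and by 2.76 ± 0.43 in brown fat, and Itpr2 was lower in muscle than in brown fat by 2.60 ± 0.46. Of 3, none was higher in muscle than in either fat, and 2 were higher and 1 lower in brown than in white fat.

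With quercetin none of these other calcium genes passed the threshold: 0 of 58 tested in muscle, 0 of 52 in white fat and 0 of 54 in brown fat. In muscle 46 of the 58 estimates were above 0, with a median of 0.15, and all 10 of the transport and store-operated list were, with a median of 0.54. Muscle vehicle 1, the library lowest in 12 of the other calcium genes, is among the controls here. Without it 41 of 60 estimates were above 0, with a median of 0.11, and 9 of 11 in the transport and store-operated list, with a median of 0.092. The smallest unadjusted p-values in muscle belonged to Atp2b3 (1.07 ± 0.44, edgeR adjusted p = 0.91), Tmem38b (-1.68 ± 0.74), Slc8a1 (1.09 ± 0.48) and Jph1 (0.60 ± 0.30). Tmem38b, a reticulum cation channel gene, ran from 88.2 to 660 CPM in muscle, with a median of 97.1 CPM. In white fat the smallest p-values belonged to Cacng1 (-2.31 ± 0.53, edgeR adjusted p = 1), Stim2 (-0.58 ± 0.24), Fkbp1b (-0.96 ± 0.59) and Srl (-1.32 ± 0.92). In brown fat they belonged to Camk2b (1.42 ± 0.62, edgeR adjusted p = 0.977), Atp2a3 (-1.41 ± 0.71), Calm3 (0.59 ± 0.30) and Mcub (1.5 ± 0.78).

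Within muscle the 8 genes did not vary as one set. Over the 6 muscle libraries, log2 CPM of Casq1 and Pvalb gave Pearson's r of 0.926 and Atp2a1 and Ryr1 gave 0.902, while Casq1 and Ryr1 gave -0.251 and Atp2a2 and Cacna1s -0.770. In the 6 brown fat libraries Ryr1 and Cacna1s gave 0.999 and Casq1 and Pvalb 0.968. These are descriptions over libraries that share a tissue and differ in arm. In muscle, Casq1 and Pvalb were both lowest in vehicle 1, at 65.5 and 3604 CPM, and r was not taken without that library.

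Genes outside the lists with a similar profile over the 18 libraries were ranked by Pearson's r of log2 CPM. Ryr1 was closest to Neb (r = 0.992), the nebulin gene, Cacna1s to Rbfox1 (0.995), a splicing factor gene, and Pvalb to Ckmt2 (0.988), the mitochondrial creatine kinase gene. Casq1 was closest to Dhrs7c (0.986), Casq2 to Slc25a4 (0.967), the mitochondrial ATP carrier gene, and Sln to Smtnl1 (0.974). Atp2a2 had the lowest such value, with Gss (0.870), the glutathione synthetase gene. The 18 libraries fall into 3 tissues. Over the 6 muscle libraries alone the closest genes were others, such as Mettl21e for Casq1 (0.999), Mrpl34 for Casq2 (0.999), Rxrg for Pvalb (0.993) and Zfp516 for Ryr1 (0.970). Each is the highest r of all genes kept, over only 6 libraries. Such values are high by selection and show no link between the genes.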

How the data were processed

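RNA sequencing gave 1 table of raw counts per gene for each of 18 libraries, in 6 groups of 3. Per the submitters' processing notes the authors used HISAT2, HTSeq and DESeq2 with build mm10, with no versions given. The annotation and strand setting of the deposited counts: not given in the sources used here. NEBNext Ultra libraries were made from total RNA, per the labels' protocols. Without a stated strand setting, reads over exon bases shared with genes of the other strand (763 in Atp2a1 with Rabep2, 1309 in Cacna1s, 864 in Ryr1, 156 in Casq1 and 83 in Atp2a2) cannot be told apart.

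Symbols and coordinates came from GENCODE for GRCm38. The 5 summary lines of each table were left out of library sizes; the share of reads assigned to no feature was 2.53 to 9.11% and the ambiguous share 6.47 to 9.84%. Library totals of 8436308 to 12311345 counts set the precision of low values, and the p-values measure only the spread between these libraries, since no source says how animals map to them. No 2 replicates agreed within sampling noise, the chi-square of their counts divided by its degrees of freedom being at least 27.0 over 18 pairs.

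Genes were filtered with filterByExpr (minimum count 10, total 15), scaled by TMM and tested two-sided with edgeR 4.0.16 (glmQLFit, glmQLFTest) in R 4.3.3, with Benjamini-Hochberg adjustment over all genes tested and a threshold of 0.05. Quercetin was tested in each tissue alone; tissues, and differences of the quercetin effect between tissues, in a fit of all 18 libraries with 6 group means. Standard errors were derived from the F statistic. CPM used TMM factors over 18 libraries, and TPM the exon union lengths. Correlations used log2 CPM with a prior count of 2. The functions were tested on simulated data.

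Named genes were the 8 genes everywhere, the 4 largest called differences in each direction per tissue comparison among the other calcium lists, the 4 smallest p per quercetin comparison, and the 3 most similar genes, of which some are left out. The genes, lists and tests were chosen with earlier results of these data known. Alternatives were DESeq2 1.42.0 (which gave no adjusted p for 5 values of the 8 genes, left out), DESeq2 size factors in edgeR, no filter, 1 arm, 2 tissues, 1 flow cell, a replicate block, and each library left out; leaving out 5 libraries with markers of other tissues was chosen after seeing the data. The markers Tnnc2 and Tagln had 68 and 65 reads in all and were not tested between tissues.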

Additional observations from a re-analysis of the deposited data

How the results depend on the processing

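Counts of genes called for quercetin (0 in each tissue) were 4, 6 and 3 with DESeq2 in muscle, white fat and brown fat, 32 in muscle with no filter, 0 to 1 in brown fat when single libraries were left out (1 without quercetin 3) and 1 there without the 5 libraries that hold markers of other tissues. Differences of the effect between tissues went from 0 to 7, 2 and 11 genes with DESeq2, and from 0 to 1 of the 8 genes for muscle against white fat and 1 for brown against white fat. Genes called for muscle minus white fat went from 8251 to 5076 with vehicle libraries only and 4587 with quercetin libraries only, for muscle minus brown fat from 4461 to 1689 and 1703, and for brown minus white fat from 6604 to 3106 and 2997; fewer samples entered these fits. Of the 8 genes, 7 calls between muscle and brown fat became 1 and 1 in single arms (where Atp2a1 was 4.72 and 5.16, Ryr1 4.55 and 4.47 and Cacna1s 4.51 and 5.32) and 4 to 7 with single libraries left out, and 8 between brown and white fat became 1 with vehicle libraries only.

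Among the values of single genes, 765 kept direction and side of the threshold, 49 changed sign, 44 lost a call and 3 gained one. Changes of sign for quercetin in muscle were Casq2 at -0.076 on flow cell H7H2WDSXX only, and with single libraries left out Casq2 (-0.12 to 1.60) and Sln (-1.34 to 0.011). In white fat they were Atp2a2 (-0.87 to 0.43) and Ryr1 (-1.37 to 0.997) with single libraries left out, and in brown fat Atp2a1 (-4.29 to 2.01), Atp2a2 (-0.58 to 0.59), Cacna1s (-4.11 to 2.01), Casq1 (-0.87 to 5.33), Casq2 (-0.058 to 3.39), Pvalb (-0.91 to 5.09), Ryr1 (-4.11 to 2.61) and Sln (-2.88 to 5.77). Muscle minus white fat changed sign for Atp2a2 at 0.16 with vehicle libraries only and 0.57 on 1 flow cell, and muscle minus brown fat for Sln at -1.40 with quercetin libraries only and -0.19 on 1 flow cell. Without the 5 libraries that hold markers of other tissues, chosen after seeing the data, sign changes were Ryr1 at 0.997 in white fat, Atp2a2 at -0.23, Casq1 at -1.35, Ryr1 at -1.96, Pvalb at -1.26 and Cacna1s at -2.21 in brown fat, and for the difference of the effect Sln at -0.82 (muscle against white fat) and Pvalb at 1.76 (muscle against brown fat). The causes were not tested.

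Replicate numbers were not taken as pairs: same-numbered libraries gave r from -0.699 to 0.266 between arms and -0.136 to 0.298 between tissues; those of the vehicle arm were all above 0 between tissues (0.053 to 0.298). With the replicate block, calls among the 8 genes were 7, 7 and 6, with Casq1 (3.93, edgeR adjusted p = 0.0557) and Ryr1 (3.70, adjusted p = 0.099) lost between brown and white fat. Signs changed with the block for quercetin on Ryr1 in white fat (0.19), Ryr1 (-2.25) and Cacna1s (-1.91) in brown fat, Atp2a2 in muscle minus white fat (0.084) and the difference for Pvalb between muscle and brown fat (0.19). With single libraries left out, ranges also crossed 0 for Atp2a2 in muscle minus white fat (-0.22 to 0.29), for Sln in muscle minus brown fat (-0.14 to 2.88), and for the difference of the quercetin effect in Sln between muscle and white fat (-0.64 to 3.90) and muscle and brown fat (-6.39 to 2.20) and in Pvalb between muscle and brown fat (-4.42 to 1.47).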
